A study of Homo sapiens with 58 samples.

Results

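The peaks described here are 503 intron peaks of the RNA-binding protein HuR whose signal rose in the cytoplasmic fraction of Huh-7.5 cells given sodium arsenite. They were taken from 387214 peaks, of which 214982 were annotated as intron, and they lie in 355 genes. A peak was chosen when it was annotated as intron, when its mean over the 3 cytoplasmic arsenite libraries was at least 5 normalised tags, and when that mean plus 1 was at least 3 times the cytoplasmic mock mean plus 1. A tag is 1 sequenced HuR-bound RNA fragment, and the values, called normalised tags here, are tags per 1000000 of a library's total. The peaks were thus selected on the cytoplasmic mock and arsenite values. The cytoplasmic values therefore describe the choice and were not tested; the nuclear, input and enriched libraries took no part in it.

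HuR, the product of ELAVL1, was crosslinked to RNA with UV light, immunoprecipitated and its RNA sequenced (CLIP-seq). Huh-7.5 is a human hepatocellular carcinoma line. The fraction libraries come from WT cells without an APEX reaction, with 3 mock and 3 arsenite libraries each from cytoplasm and nucleus. The others come from lines carrying APEX, a peroxidase that biotinylates its surroundings, as APEX-NLS in the nucleus, APEX-NES in the cytoplasm or APEX-G3BP1 at the stress granule protein G3BP1. In these lines the APEX reaction was run in mock and arsenite cells alike. Input libraries had the HuR immunoprecipitation alone, and enriched libraries had a streptavidin capture as well. APEX-NLS and APEX-NES had 2 input and 4 enriched libraries per treatment. For APEX-G3BP1 there were 4 mock inputs, 5 arsenite inputs, 6 enriched mock and 7 enriched arsenite libraries. Arsenite was given at 0.5 mM for 45 min. The labels name neither clones nor separate cultures, so p-values measure the spread between these libraries, which may be technical.

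HuR binds U-rich and AU-rich stretches in introns and 3'UTRs. It is mostly nuclear at rest and shuttles to the cytoplasm under stress, where it is known to stabilize messenger RNAs. Introns are normally removed and degraded in the nucleus, and some transcripts keep an intron after processing. Sodium arsenite causes oxidative stress and the assembly of stress granules, cytoplasmic bodies of stalled messenger RNA and protein.

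Tags that fell in peaks numbered 235471 to 673322 per fraction library, 1353 to 484305 per input library and 519 to 86419 per enriched library. Intron tags made up 28.1% to 34.8% of the cytoplasmic mock tags and 43.1% to 44.6% of the cytoplasmic arsenite tags. The nuclear share was 53.6% to 54.3% in mock and 45.7% to 48.1% in arsenite. Of 12 hepatocyte marker genes, 10 held peaks, among them ALB and APOB, while APOA1 and TTR held none. Summed over the list they had 821 to 1122 normalised tags in cytoplasmic mock and 472 to 496 in cytoplasmic arsenite. In the nucleus the sums were 449 to 468 in mock and 244 to 308 in arsenite, so the sum was lower in arsenite in both fractions, without overlap. Single genes of the list differed from the sum: APOB had 103, 102 and 75.3 in nuclear mock and 135, 123 and 105 in nuclear arsenite. The mature cytoplasmic RNAs examined, of which 2 of 3 held peaks, had 1919 to 2787 in cytoplasmic mock and 956 to 1209 in cytoplasmic arsenite. In the nucleus they had 255 to 275 in mock and 476 to 537 in arsenite. The part of these shifts in the intron values was not tested. The 7 markers of other cell types summed to between 0 and 5.46 normalised tags in the fraction libraries. The nuclear RNAs MALAT1, NEAT1 and KCNQ1OT1 together gave 2328 to 2883 normalised tags in cytoplasmic mock and 2701 to 3689 in cytoplasmic arsenite. NEAT1 alone gave 116 to 138 in cytoplasmic mock and 201 to 280 in cytoplasmic arsenite, without overlap, and 385 to 440 and 436 to 626 in the nucleus. The 156 snoRNA peaks, also nuclear RNA, moved the other way, from 176 to 294 in cytoplasmic mock to 58.6 to 76.5 in cytoplasmic arsenite, and from 1864 to 1996 to 740 to 1002 in the nucleus. Whether RNA carried over from the nucleus during fractionation has a part in the cytoplasmic values was not tested. In these bulk libraries, more HuR per transcript and more transcript cannot be told apart.

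The deposited table gives no sequence. Of the 503 peaks, 2 lie inside the RefSeq promoter windows (GRCh38.p14), and they are shown because they are the members whose bases could be read. Capitals mark runs of 3 or more T, which are U in the RNA, and each sequence is 5′ to 3′ on the minus strand, the strand of its gene:
TRIM5, chr11:5841979-5841999: TTTTaccaggaatcaggataa
CUL3, chr2:224569942-224569962: TTTTTTgagactggagcttga
Whether the table counts positions from 0 or 1 is not stated; the 21 bases printed hold the peak under either reading. Both begin with a run of T. Of 203 intron peaks of any behaviour inside such windows, 69.0% held TTT on the peak's strand, as did 59.0% of all 573 peaks there, so the runs describe these peaks and set nothing apart. The peak in TRIM5, an antiviral restriction factor, had 3.19, 1.02 and 3.16 normalised tags in the cytoplasmic mock libraries and 13.0, 9.10 and 7.65 in the arsenite libraries. The table assigns this peak to TRIM5, but its bases were read in the promoter window of another minus-strand gene, OR52E6. CUL3, the scaffold of a ubiquitin ligase that turns over NRF2, had 1.06, 0 and 0 in mock and 10.1, 3.41 and 5.56 in arsenite. The CUL3 peak spans the start given for its RefSeq promoter window, which need not be the outermost start of the gene. The table annotates the peak as intron.

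The median gained peak went from 1.06 normalised tags in cytoplasmic mock to 7.13 in cytoplasmic arsenite, and the median ratio that chose the peaks was 3.82. The 1944 intron peaks that met the level limit but not the fold limit had medians of 4.19 and 6.87. The gained peaks therefore differed from their level-matched neighbours mainly in having little mock signal, which the rule sets. In tags, a gained peak had a median of 3 over the 3 mock libraries and 33 over the 3 arsenite libraries. A tag was present in every cytoplasmic arsenite library for all 503, and in no cytoplasmic mock library for 13. The peaks just inside the fold limit were in EXOC4 and UBE2K, with ratios of 3.00 and 3.01, and those just outside were another PID1 peak and one in RBM6, with 2.995 and 2.993. At the level limit, MBNL2 and PRKD1 lay just inside with 5.00 and 5.01 normalised tags, and ZNF638 and NCOA7 just outside with 4.99 and 4.96.

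The share of peaks that met the fold limit among those at the level limit depended on the annotation class. It was 20.6% for intron peaks, 20.5% for transposable elements, 16.6% for non-coding RNA, 15.8% for unannotated peaks and 1.59% for 3'UTR peaks (49 of 3080), against 12% over all classes. These are descriptions of the contrast that chose the peaks.

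**Figure D1:**
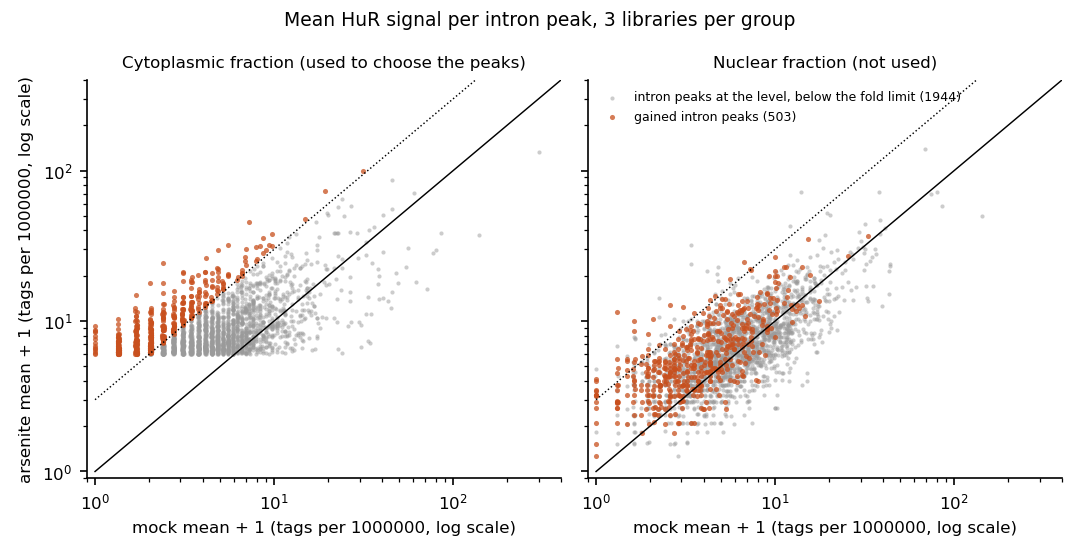
Each point is 1 intron peak; the axes give the mock and arsenite means of 3 libraries plus 1, in normalised tags on log scales, for the cytoplasmic fraction (left) and the nuclear fraction (right). Orange points are the 503 gained peaks, grey points the 1944 peaks at the same level below the fold limit, the solid line marks equality and the dotted line a ratio of 3; in the nucleus 423 of the 503 orange points lie above equality and 34 reach the dotted line.

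The largest cytoplasmic ratio belonged to WEE1, the kinase that holds CDK1 inactive before mitosis (ENSG00000166483, chr11:9582868-9582888). Its cytoplasmic mock libraries had 2.13, 1.02 and 1.05 normalised tags and its arsenite libraries 23.8, 20.5 and 25.7. The peak is annotated both as intron and as lying within 10 kb downstream of a gene. LPP, which codes for a focal adhesion protein, had no tag in the 3 mock libraries and 7.94, 9.10 and 7.65 in the arsenite libraries (chr3:188187511-188187531). Its mock values lie below the floor of 3 tags.

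CYB5B, an outer mitochondrial membrane cytochrome b5, went from 1.06, 1.02 and 0 to 15.2, 10.8 and 16.0 (ENSG00000103018, chr16:69435039-69435059). KLC2, a kinesin light chain, went from 0, 2.04 and 1.05 to 18.8, 14.2 and 17.4 (chr11:66260182-66260202). PID1, UBR3, EHBP1 and LRMDA complete the 8 largest ratios. Each of these 4 had no tag in any cytoplasmic mock library and means of 6.97 to 7.76 in arsenite.

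The highest cytoplasmic arsenite level was in GPC3, a cell surface proteoglycan expressed in hepatocellular carcinoma. That peak (ENSG00000147257, chrX:133940678-133940698) had 33.0, 27.5 and 30.6 normalised tags in mock and 91.0, 95.5 and 111 in arsenite. AEBP2, a cofactor of the Polycomb complex PRC2, followed with 24.5, 13.2 and 16.9 in mock and 76.5, 67.1 and 72.3 in arsenite (chr12:19530044-19530064). SFPQ, a paraspeckle protein that binds NEAT1, had 12.8, 12.2 and 16.9 in mock and 38.3, 38.1 and 63.3 in arsenite. The peak in KCTD3 had 6.38, 6.11 and 6.33 in mock and 44.8, 43.8 and 45.9 in arsenite. TAS2R14 and STRN3 had arsenite means of 36.9 ± 7.23 and 34.5 ± 0.84 (SD, n = 3). In all 6, every arsenite library was above every mock library. The same held for 498 of the 503 gained peaks, which were chosen on these values, against 16.1% of all peaks tested in the cytoplasm.

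**Figure D2:**
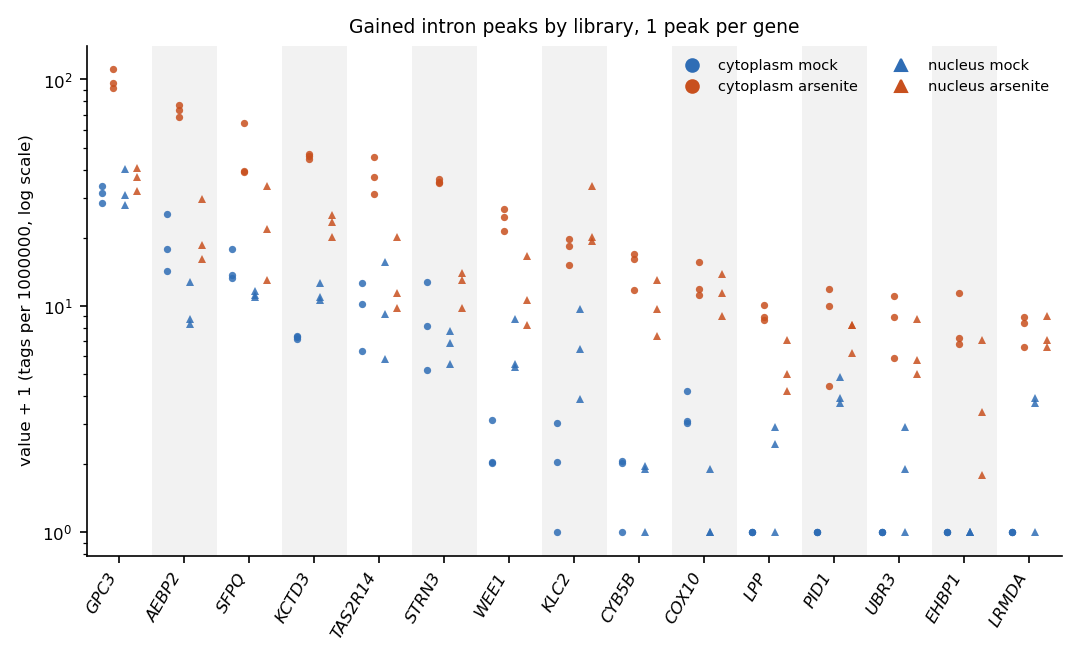
For 15 gained peaks, 1 per gene (the 8 largest cytoplasmic ratios, the 6 highest cytoplasmic arsenite levels and the 2 called in the nucleus, of which CYB5B is in both), each symbol is 1 library and the y axis is its value plus 1 in normalised tags on a log scale. Circles are cytoplasm and triangles nucleus, blue is mock and orange arsenite; the nuclear triangles of COX10 and CYB5B are far apart while those of GPC3 overlap.

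As a description of how the cytoplasmic values vary between libraries, the same limits were applied to 2 of the 3 replicate numbers and the peaks were read in the remaining one. Leaving out libraries numbered 1, 2 and 3 gave 722, 573 and 527 peaks, of which 392, 381 and 347 are among the 503. Of these, 91.1%, 94.9% and 95.6% were higher in arsenite in the held-out libraries, where 59.6%, 62.6% and 55.8% of all peaks at the level limit were. Of the intron peaks that met the level limit but not the fold limit in the same 2 replicates, 67.3%, 82.6% and 74.2% were higher. The median held-out ratio was 2.39, 2.84 and 3.01, below the 4.01, 4.11 and 3.97 in the libraries that chose the peaks. A ratio of 3 was reached in the held-out libraries by 35.6%, 48.5% and 50.5% of them, against 12.8%, 16.9% and 16.1% of all peaks at the level limit and 12.1%, 21.7% and 21.2% of those intron peaks.

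In the nuclear fraction, which took no part in the choice, the gained peaks mostly had higher values in arsenite, although few single peaks passed the test. The median over the 503 peaks was 2.69 normalised tags in nuclear mock and 4.38 in nuclear arsenite. The arsenite mean was above the mock mean for 423 of 503 (84.1%), against 48.8% of all peaks with a nuclear tag, 58.1% of the level-matched intron peaks and 42.6% of all intron peaks. For 34 of them (6.76%) the nuclear ratio, computed as for the cytoplasm, reached 3, against 0.605% of all peaks and 1.75% of the level-matched ones. In mock, 416 of the 503 (82.7%) had more signal in the nucleus than in the cytoplasm, against 60.8% of the level-matched and 57.4% of all intron peaks. Under arsenite 65 (12.9%) did, against 28.2% and 51.1%. That last pair of counts uses the values that chose the peaks.

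As a share of all intron tags, the gained peaks took 0.955% to 0.976% in the nuclear mock libraries and 1.72% to 1.87% in the nuclear arsenite libraries. The means were 0.967% ± 0.0110 and 1.77% ± 0.0844 (SD, n = 3 each), and the groups did not overlap. The level-matched peaks took 6.94% to 7.01% and 8.22% to 8.24%, a ratio of 1.18 against 1.83 for the gained peaks. In the cytoplasm the share of the gained peaks went from 0.750% to 3.00%.

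A limma fit over all 200232 peaks with enough nuclear libraries above 0 tested 500 of the 503. The 3 left out, in ATRNL1, ZNF516 and TLE4, had no nuclear mock tag. In all, 13 of the 503 had none. The rest of the 13 passed the filter through the arsenite libraries alone, which fixed their direction. They enter the counts and the median that follow. At a Benjamini-Hochberg adjusted p under 0.05, 2 gained peaks rose and none fell, where 0.152% of all tested peaks rose and 0.034% fell. The median log2 difference was 0.51 for the gained peaks, 0.11 for the level-matched peaks and 0.01 for all peaks tested. At an unadjusted p under 0.05 there were 155 of 500, against 11.2% of all peaks. In 158 of 500 (31.6%) every nuclear arsenite library was above every mock library, against 13.2% of the level-matched and 7.66% of all tested peaks. In 4 the order was the reverse, against 8.70% and 9.28%. Those 4 were in ANKRD17, GOLGA4, HMGCS1 and GPC6; none passed the limma test, and the lowest, GOLGA4, had a log2 difference of -0.84.

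The largest nuclear log2 difference among the gained peaks was in COX10, which makes heme O, the precursor of the heme A of cytochrome c oxidase (ENSG00000006695, chr17:14088635-14088655). Its nuclear mock libraries had 0, 0.909 and 0 normalised tags, 1 tag in all, and its nuclear arsenite libraries 12.8, 8.0 and 10.4. The groups were far apart and the log2 difference was 2.29 ± 0.31 (SE; limma adjusted p 0.0111). CYB5B, the other called peak, had 0, 0.909 and 0.966 in nuclear mock and 12.0, 6.40 and 8.66 in nuclear arsenite, also without overlap. Its log2 difference was 1.95 ± 0.32 (limma adjusted p 0.0356). Both differences are on the scale of log2(value + 2.28 normalised tags). The nuclear mock values of COX10 and CYB5B lie below the floor, so the size of either difference is uncertain. Their arsenite libraries alone were enough to pass the filter. With so few mock tags the filter favoured a rise, so these p-values are not an independent test of direction. Leaving out any single nuclear library ended the CYB5B call, and leaving out any but the third arsenite library ended the COX10 call, with limma adjusted p-values of up to 0.271 and 0.269.

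edgeR's quasi-likelihood test on the recovered tags called 12 of the 500 higher and none lower, against 0.292% and 0.0854% of all peaks. It called COX10, CYB5B, KLC2, FAF1, RBM14-RBM4, ARHGAP5, NF1, BPTF, RAB1A, BAZ2B, HMGCS1 and INSIG1. Of these, KLC2 had 8.74, 5.46 and 2.90 normalised tags in nuclear mock and 18.4, 19.2 and 32.9 in arsenite, with a limma log2 difference of 1.72 ± 0.34 that missed the threshold (adjusted p 0.0858). FAF1, a ubiquitin-binding adaptor named here after its values were seen, had 7.29, 4.55 and 6.76 in nuclear mock and 19.2, 22.4 and 21.7 in arsenite. In both peaks the nuclear groups did not overlap.

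Among peaks with high cytoplasmic signal or a large cytoplasmic ratio, the nuclear differences ranged widely. The top GPC3 peak had 39.3, 30.0 and 27.04 in nuclear mock and 31.2, 36.0 and 39.8 in nuclear arsenite, which overlap, with a log2 difference of 0.15 (limma adjusted p 0.817). The WEE1 peak had 4.37, 4.55 and 7.72 against 9.61, 7.2 and 15.6, which overlap as well (0.72, limma adjusted p 0.429). KCTD3 had 11.7, 10.0 and 9.66 against 19.2, 22.4 and 24.3, which do not overlap, and still missed the threshold (0.93, limma adjusted p 0.210). Split by cytoplasmic ratio into 3 near-equal parts, the members' median nuclear difference was 0.40, 0.48 and 0.59 from the lowest ratios to the highest. Spearman's rho between ratio and nuclear difference was 0.16 over 500 peaks, which share their libraries within each fraction; it is given as a description.

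**Figure D3:**
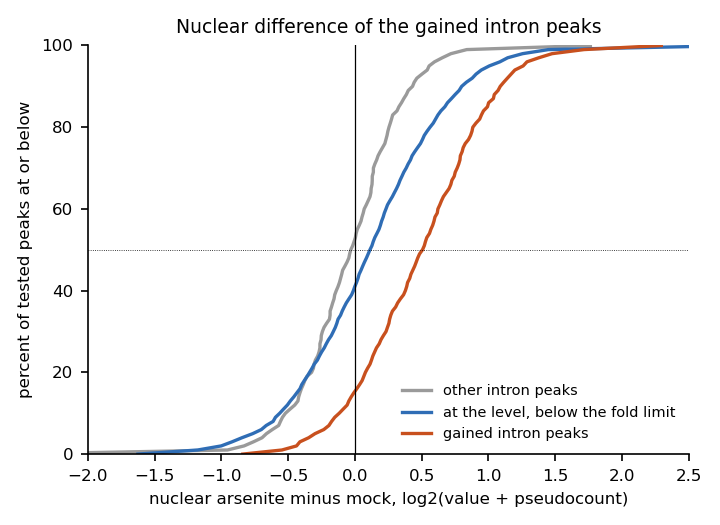
Cumulative percentage of tested peaks (y axis) by the nuclear arsenite minus mock difference in log2(value + pseudocount) (x axis), with 3 libraries per group. The orange line of the gained peaks crosses 50% at 0.51, the blue line of the level-matched peaks at 0.11 and the grey line of the other intron peaks at -0.03.

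Of the 355 host genes, 274 held 1 gained peak, 45 held 2 and 36 held 3 or more, so 229 of the 503 shared a gene with another. Within genes the median distance between neighbouring gained peaks was 21.9 kb, and 22 lay within 1000 nt of another, so most were separate places in a gene rather than pieces of 1 site. HMGCS1 held 11, GPC3 and STRN3 held 7 each, and EIF4G3 and SMYD3 held 5 each.

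HMGCS1 codes for the cytosolic enzyme that supplies the mevalonate pathway of cholesterol synthesis (ENSG00000112972, chromosome 5). Its 11 gained peaks are 11 of the 21 intron peaks of the gene that met the level limit. They lie between 0.723 kb and 15.2 kb from the RefSeq start of the gene. Summed, they had 29.8, 28.5 and 41.1 normalised tags in cytoplasmic mock and 143, 156 and 170 in cytoplasmic arsenite. In the nucleus the sums were 48.1, 46.4 and 47.3 in mock and 102, 105 and 126 in arsenite. The nuclear groups did not overlap for the sum, and for 8 of the 11 peaks every nuclear arsenite library was above every mock library, against 31.6% of the gained peaks and 7.66% of all tested peaks; 2 overlapped and 1 was lower. The largest nuclear log2 difference among them was 1.31. The peak at chr5:43312669-43312689, with 10.2, 10.0 and 6.76 against 20.8, 22.4 and 33.8, had the smallest adjusted p (1.30 ± 0.27, limma adjusted p 0.123). The 66 intron peaks of HMGCS1 together went from 140 to 392 in the cytoplasm and from 203 to 391 in the nucleus. Its 13 3'UTR peaks went from 513 to 377 in the cytoplasm and from 92.1 to 290 in the nucleus, so introns and 3'UTR moved in opposite directions in the cytoplasm and in the same direction in the nucleus.

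**Figure D4:**
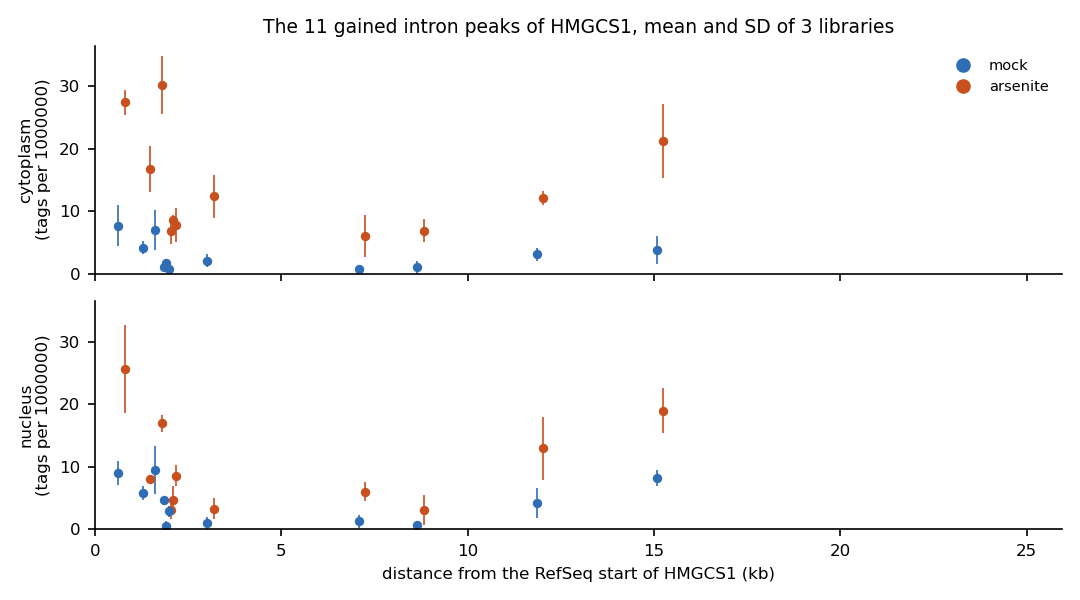
The 11 gained peaks of HMGCS1 by distance from the RefSeq start of the gene in kb (x axis) and mean normalised tags of 3 libraries (y axis), in the cytoplasm (top) and the nucleus (bottom); bars are 1 SD, cut at 0, and mock (blue) and arsenite (orange) are drawn side by side. The 4 highest cytoplasmic arsenite means are 30.2, 27.4, 21.3 and 16.8.

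The other genes with many gained peaks are given in the same way, and no difference between genes was tested. The 7 peaks of GPC3 summed to 42.5, 41.8 and 39.0 in cytoplasmic mock and 151, 164 and 174 in arsenite. In the nucleus they gave 67.0, 43.6 and 56.0 in mock and 70.5, 69.6 and 79.7 in arsenite, which do not overlap. The 7 peaks of STRN3, a subunit that directs the phosphatase PP2A, gave 22.3, 12.2 and 12.7 in cytoplasmic mock and 84.5, 76.2 and 80.0 in arsenite. In the nucleus STRN3 had 42.3, 27.3 and 38.6 against 48.0, 41.6 and 40.7, which overlap. EIF4G3, a translation initiation scaffold, had 4.25, 0 and 3.16 against 29.6, 31.3 and 29.9 in the cytoplasm and overlapping nuclear values of 16.0, 10.9 and 6.76 against 16.8, 12.0 and 13.0. SMYD3, a lysine methyltransferase, had 7.45, 6.11 and 9.49 against 44.8, 46.6 and 59.8 in the cytoplasm and 18.9, 14.5 and 15.4 against 17.6, 28.0 and 31.2 in the nucleus, which overlap.

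Across host genes, all intron peaks of a gene summed were higher in cytoplasmic arsenite in 351 of 355 genes, against 67.6% of all genes with intron peaks; the choice of peaks enters this count. The 3'UTR peaks of the same genes, which the rule did not use, were higher in cytoplasmic arsenite in 72 of 310 genes (23.2%), against 28.9% of all genes with 3'UTR peaks. In the nucleus the host introns were higher in 159 of 355 (44.8%), against 39.1% of all genes, and the host 3'UTRs in 252 of 310 (81.3%), against 71.1%. None of these shares was tested. The 30178 other intron peaks of host genes had a median nuclear log2 difference of -0.01, against 0.51 for the gained peaks of the same genes.

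The gained peaks had annotations close to those of other intron peaks. The table marks 28.2% of them as lying in a retained intron as well, against 30.2% of the level-matched peaks and 29.6% of all intron peaks. It marks 19.5% as lying within 10 kb downstream of a gene, against 22.6% and 21.1%. All 393 gained peaks whose gene strand could be read lay on that strand, as did all 173770 such intron peaks. They lay a median of 68.0 kb from the start of the gene, against 43.2 kb for level-matched and 57.0 kb for all intron peaks, in genes with a median length of 165, 139 and 150 kb. None of these differences was tested.

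Of the gene lists examined, splicing regulators held 7 gained peaks among 47 intron peaks at the level limit (14.9%, against 20.6% of all intron peaks). HNRNPA2B1 held 2, and HNRNPH1, HNRNPK, RBM39, SON and TRA2B held 1 each. The highest was in HNRNPK, an RNA-binding protein of splicing and translation, with 4.25, 9.17 and 4.22 in cytoplasmic mock and 23.1, 25.6 and 28.5 in arsenite. In the nucleus its peak had 10.2, 13.6 and 9.66 against 20.02, 19.998 and 15.6, which do not overlap (log2 difference 0.63, limma adjusted p 0.303). All 7 had a nuclear log2 difference above 0, with a median of 0.63, against 84.6% of all gained peaks tested, and none was called.

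Stress granule genes held 7 gained peaks among 16 at the level limit (43.8%, against 20.6% of all intron peaks). ATXN2, a granule component, held 3 of them, and PUM2, which represses messenger RNAs by binding their 3'UTRs, held 1. The highest of these was in ATXN2 (chr12:111573028-111573048), with 2.13, 3.06 and 3.16 in cytoplasmic mock and 15.9, 23.9 and 18.1 in arsenite. In the nucleus it had 4.37, 10.0 and 9.66 against 11.2, 16.0 and 15.6, which do not overlap. The PUM2 peak had 0, 0 and 1.05 against 10.1, 7.96 and 9.74 in the cytoplasm and overlapping nuclear values of 4.37, 2.73 and 5.79 against 3.20, 5.60 and 3.47. Of the 7, 5 had a nuclear log2 difference above 0 (median 0.73), against 84.6% of all gained peaks tested, and none was called. Each count is small and no list was tested.

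The other lists held few or none. WEE1 was the single intron peak at the level limit among the cell cycle and p53 genes. None of 18 level-limit peaks of NRF2 oxidative stress genes, 3 of immediate early genes and 1 of heat shock genes was gained, and the integrated stress response genes had no intron peak at the level limit.

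In the input libraries of the APEX lines the gained peaks were thinly covered. Of the 503, 155 entered the limma test with library set and line as covariates, and none was called; 0% of all 17091 tested peaks was called in either direction. At an unadjusted p under 0.05 there were 20 of 155 (12.9%), against 9.44% of all tested peaks and 6.96% of the level-matched ones. The log2 difference was above 0 in 110 of 155 (71.0%), against 69.7% of all tested peaks, which is near that background. edgeR called 2 higher, against 1.4% of all tested peaks. They were AEBP2, with mean values of 1.81 in mock and 16.6 in arsenite over the 8 and 9 libraries (edgeR adjusted p 0.0401), and GABPB1, a subunit of the transcription factor GABP, with 0.173 and 2.58 (edgeR adjusted p 0.0206). Both missed the threshold in limma (adjusted p 0.522), and GABPB1 is named after its values were seen.

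As a share of intron tags, the input values are best read within a library set, the prefix of the sample descriptions. In set JL0388 the share went from 0.648% to 0.833% in APEX-NLS, from 0.628% to 0.867% in APEX-NES and from 0.671% to 0.904% in APEX-G3BP1, with 1 library per treatment in each. In set JL1024 it went from 0.796% to 1.05% in APEX-NLS and from 0.609% to 1.42% in APEX-NES, the latter on 23 and 54 tags. APEX-G3BP1 went the other way there, from 1.34% to 1.26%, on 6 mock tags. In set JL0361 the APEX-G3BP1 libraries overlapped, with 0.913% to 2.85% in mock and 1.30% to 2.35% in arsenite. Thus the mean share was higher in arsenite in 5 of the 7 pairs of line and set, by ratios of 1.29 to 2.34. In 4 of the 5 the ratio was less than the 1.83 of the nuclear fraction. The JL0361 means include 1 shallow library per treatment, with 31 gained-peak tags in mock (2.85%) and 20 in arsenite (2.35%). The other mock library there, at 0.913%, lay below every arsenite library. The level-matched intron peaks were higher in arsenite in all 7 pairs, by ratios of 1.06 to 1.56.

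**Figure D5:**
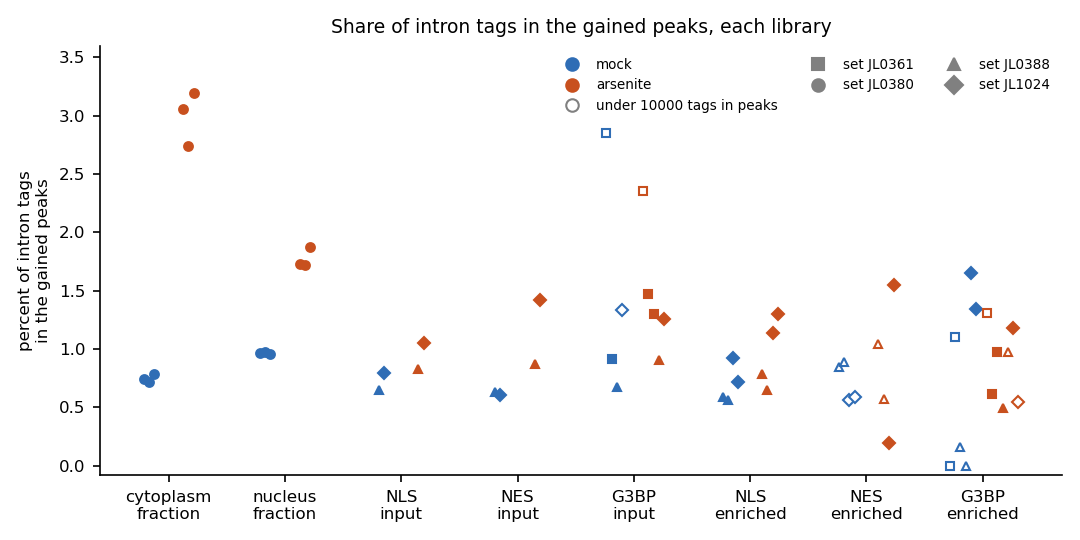
Percentage of each library's intron tags that fell in the 503 gained peaks (y axis) for all 58 libraries by kind (x axis), with mock in blue and arsenite in orange; symbols give the library set and open symbols mark libraries with under 10000 tags in peaks. Both fractions separate by treatment, the cytoplasmic one because it chose the peaks, while the G3BP input and enriched libraries spread from 0% to 2.85% with no common order.

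In the enriched libraries most gained peaks had no tag. The mean was 0 for 402 of 503 in APEX-G3BP1 arsenite and for 302 of 503 in APEX-NLS arsenite. No gained peak passed the filter of the limma test in the APEX-G3BP1 or APEX-NES comparison of arsenite with mock, or in the comparison of APEX-G3BP1 with APEX-NES under arsenite, in which 1505, 753 and 1223 peaks were tested. Differences of single gained peaks in these comparisons were therefore not tested at this depth.

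APEX-NLS allowed more. There 21 gained peaks were tested for arsenite against mock and none was called by limma or edgeR, where 0% of all 2796 tested peaks was called by either; at an unadjusted p under 0.05 there was 1, against 5.4% of all. It was HNRNPH1, named after its values were seen, with means of 2.46 in mock and 7.63 in arsenite. With library pairs that could not be told apart from sampling noise counted as 1 sample, there were 3 of 21, against 234 of all 2796, and none was called. Between APEX-NLS and APEX-NES under arsenite 8 were tested and none was called, against 0% of 1676; 2 had an unadjusted p under 0.05, against 10.4%. These were PHTF1 and HNRNPH1, with means of 8.01 and 7.63 in APEX-NLS and no tag in the 4 APEX-NES libraries. They passed the filter on low values through APEX-NLS alone, which fixed their direction, so their p-values are not given.

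The shares of intron tags in the APEX-NLS enriched libraries were 0.562% and 0.586% in mock and 0.651% and 0.782% in arsenite in set JL0388, and 0.720% and 0.923% in mock and 1.13% and 1.30% in arsenite in set JL1024. Neither set overlapped between treatments, and neither did the level-matched intron peaks, with mean shares of 4.73% and 5.33% in JL0388 and 6.95% and 7.86% in JL1024. The JL0388 libraries of each treatment are a pair that could not be told apart from sampling noise, and counted once that set holds 1 sample against 1. The APEX-NES libraries overlapped in both sets. In APEX-G3BP1 the 2 sets went in opposite directions, from 0.0805% to 0.736% in JL0388 and from 1.5% to 0.860% in JL1024; JL0361 overlapped. The JL0388 libraries of APEX-G3BP1 are such pairs as well. The level-matched peaks of APEX-G3BP1 were higher in arsenite, without overlap, in all 3 sets.

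The peaks with the highest means in the APEX-G3BP1 arsenite enriched libraries, in SGO1, STRN3 and FNIP1, each rested on 1 library of 7. In SGO1 and STRN3 that was 1 tag in a library with 1391 tags in peaks, and in FNIP1 6 tags in a library with 12689. The peaks with the highest input arsenite means were in SFPQ, EXOC4 and INVS. SFPQ had a tag in all 5 APEX-G3BP1 arsenite input libraries, with a median of 22.1 normalised tags, and in 2 of the 4 mock ones, with a median of 2.61. The mock inputs without a tag had 2711 and 1353 tags in peaks. There 1 tag is 50.6 and 44.5 normalised tags, so a lower level could not be seen and the medians are not comparable. In the APEX-G3BP1 enriched libraries SFPQ went the other way, with 39 tags in mock (mean 10.1) and 2 in arsenite (mean 0.545). EXOC4 and INVS had 3 and 2 tags in the shallowest APEX-G3BP1 arsenite input library, which set their means.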

How the data were processed

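The deposited table gives 1 signal value per peak and library; per the file headers and labels these are the authors' HuR CLIP-seq tags divided by a library total, and they were multiplied by 1000000 here. The submitters' processing notes name Bowtie2, SAMtools, bedtools, HOMER and the build GRCh38.p14, without roles. Dropping 8257 repeated lines of 395471 left 387214 peaks 20 bases wide (end minus start). Dividing each value by that of 1 tag gave whole tags for 100% of values, within 0.02 tag. No library column was left unmapped (0). Members and gene lists were chosen with earlier results of these data known.

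Values were tested as log2(value + 2.28 tags per 1000000) with limma 3.58.1 over all peaks that passed a filter on low values, with Benjamini-Hochberg adjustment at 0.05; edgeR 4.0.16 on recovered tags was an alternative, as were other pseudocounts, no filter, another scaling, other limits and leaving out libraries. Computations used R 4.3.3 and Python 3.11.15 with pandas 2.3.3, matplotlib 3.10.9, scipy 1.17.1 and numpy 2.4.6, and were tested on simulated data. In set JL0388 the libraries of 5 pairs could not be told apart from sampling noise by a chi-square test; they entered the reported tests as separate libraries, and counting each pair as 1 sample was an alternative. Peaks named were the 8 largest cytoplasmic ratios, the 6 highest cytoplasmic arsenite means, those called in a test, those of the 4 genes with most members (5 with a tie), the 3 highest in APEX-G3BP1 arsenite enriched and the 3 highest in arsenite input libraries, those at the edges of the limits and members of short gene lists, 1 peak per gene in each part; others are named as chosen after their values were seen. The floor is 3 tags and covers counting error only. The RNase I dilution of each library is not given in the sources used here. Some members of the gene lists are not reported here, although the lists' counts and sums include them.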

Additional observations from a re-analysis of the deposited data

Results flagged for a closer look

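In 5 of 14 sets of library values examined, 1 library stood far from the others. The 5 are single peaks in 2 groups of libraries. Chance marks about 1 set in 20, but these peaks were picked for their high means in the same libraries, so that rate cannot be applied to them. In the APEX-G3BP1 arsenite enriched libraries the peaks in SGO1 and STRN3 each had 76.1 normalised tags in 1 library and 0 in the other 6, and the peak in FNIP1 had 51.2 in 1 library and 0 in the others. In the APEX-G3BP1 arsenite input libraries EXOC4 had 176 and INVS 117 in 1 library, with next highest values of 9.92 and 15.7. These are 1, 1, 6, 3 and 2 tags.

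The share of enriched intron tags in the gained peaks separated by treatment, without overlap, in 4 pairs of line and library set, and 1 pair ran the other way. Arsenite minus mock was 0.143 percentage points in JL0388 and 0.394 in JL1024 for APEX-NLS, and 0.655 in JL0388 and -0.636 in JL1024 for APEX-G3BP1. The APEX-G3BP1 shares rest on 1 and 19 tags in JL0388 and on 644 and 56 tags in JL1024. In JL0388 the libraries of each of these groups are a pair that could not be told apart from sampling noise; counted once, the comparison is 1 sample against 1. The level-matched intron peaks were higher in arsenite in all 4 pairs of line and set, without overlap. The difference between these groups was not tested.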

How the results depend on the processing

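The count of gained peaks called in the nucleus, 2, was 0 with a pseudocount 4 times smaller, 13 of 503 without the filter (672 of all 353091), 12 with edgeR and 0 to 7 when 1 library was left out. The 7 of 500 came without the third arsenite library, where 8446 of all 255790 peaks were called higher, a larger share than among the gained peaks. The median nuclear log2 difference, 0.51, was 0.78 and 0.21 with the smaller and larger pseudocount, 0.79 with edgeR and 0.46 to 0.56 without single libraries. The input count of 0 was 2 with edgeR, and the APEX-NLS against APEX-NES count of 0 was 2 with the smaller pseudocount and 2 when scaled to tags in peaks (50 and 43 of all 1676); the filter fixed the direction of peaks with no APEX-NES tag, so these counts support nothing. The 503 gained peaks became 142 at a level of 10, 211 at a fold of 4 and 180 with the pseudocount as offset, and 483 to 623 without single libraries. The nuclear share ratio, 1.83, was 2.08 at a fold of 4, 1.96 with that offset and 1.75 to 1.86 without single libraries; the alternatives for this ratio and for the median were chosen after seeing the data. The APEX-NLS arsenite count was 0 under all 15 alternatives. In the APEX-G3BP1, APEX-NES and APEX-G3BP1 against APEX-NES comparisons no gained peak passed the filter with all libraries, and at most 2 did when 1 was left out, so a count of 0 there says nothing about stability; without the filter 263, 74 and 91 were tested and none was called. With the replicate number as a block the nuclear count was 3, adding BAZ2B (limma adjusted p 0.0496), and no other call changed. Deviations of same-numbered nuclear libraries correlated at 0.0019 to 0.0028, and in the other comparisons the values ranged from -0.0416 to 0.202. Counting noise in peaks of few tags holds such values near 0. They therefore cannot tell whether the numbers pair the libraries. Shallow enriched libraries limit what could be tested.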

Other observations

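Genes of sterol and fatty acid synthesis, a list drawn from the genes that hold gained peaks and therefore not tested, held 20 gained peaks. Their number was fixed by that choice. HMGCS1 held 11, FDFT1 and ELOVL5 held 2 each, and INSIG1, MVD and ACACA held 1 each. Summed, the 20 peaks went from 58.2 to 264 normalised tags in the cytoplasm and from 84.6 to 198 in the nucleus. In the nucleus 19 of the 20 had a log2 difference above 0; the list leaves out other lipid genes that hold gained peaks, such as FADS2 and ACSL3, and nothing is read from this count. INSIG1, which holds the sterol sensor SCAP in the endoplasmic reticulum, had 4.37, 5.46 and 0.966 in nuclear mock and 12.0, 16.0 and 13.0 in nuclear arsenite. The nuclear groups did not overlap, and the peak missed the threshold in limma (adjusted p 0.177).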
